A study of Pomacea canaliculata with 36 samples.

Results

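The eye stalk of Pomacea canaliculata at 28 days post amputation (28dpa), the last time point of a regeneration series, was set against the intact stalk. Both groups were chosen by their labels and held 4 libraries each, 8 of the 36 libraries of the series, which also covers 7 earlier times from 1dpa to 21dpa. The 28dpa libraries came from stalks left to regrow for 28 days after amputation, and the Intact libraries from stalks of animals labelled intact. All were made from polyadenylated RNA of tissue labelled eye stalk. Strain, sex, age and the number of animals behind a library are not given in the labels. Nor do they say that each library is a separate animal or pool, and p-values therefore refer to the variation among libraries, which may be technical.

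Pomacea canaliculata, the golden apple snail, is a freshwater gastropod that carries a camera-type eye, with a cornea, a lens and a cup-shaped retina, near the base of each cephalic tentacle, on a short stalk. Camera-type eyes are also found in vertebrates and cephalopods. Apple snails can rebuild a complete eye after the stalk has been cut, first closing the wound, then growing a mass of new cells and then forming lens and retina from it. A gene that differs between a regrown and an intact stalk can do so through the cells the stalk contains or through the RNA each cell makes. In bulk RNA, fewer cells of a type and less RNA per cell cannot be told apart, and this holds for every fall given here.

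The genes carry locus symbols only, with no product names in the sources used, so no gene is given a role and the tissue could not be checked against lens, retina or other cell markers. Levels are in CPM, read counts brought to a common library total after scaling by the trimmed mean of M values (TMM), and they are compared within a gene, not between genes. The 28dpa libraries held 24788170 to 27617493 counts and the Intact libraries 22403557 to 25688319, so that 1 CPM stood for 24.1 to 26.9 counts at 28dpa and 23.1 to 27.3 counts in Intact. Each 28dpa library had a count in 18651 to 18754 genes, and each Intact library in 18568 to 18697, of 21131 listed.

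At 28dpa a large part of the transcriptome differed from the intact stalk, mostly by less than 2-fold. Of 17341 genes tested, 2578 were higher at 28dpa (14.9%) and 2591 were lower (14.9%), together 5169 genes or 29.8% (edgeR quasi-likelihood test, adjusted p below 0.05). Changes of 2-fold or more were fewer, with 972 genes higher (5.61%) and 732 lower (4.22%). The remaining 3465 called genes, 67.0% of the calls, had changed by less than 2-fold. At 8-fold or more, 63 genes were higher (0.363%) and 41 lower (0.236%). For 11695 genes, 67.4% of those tested, the 95% interval of the fold change lay inside 2-fold in both directions. Of these, 9216 were not called, and 2479 were called with a change that the interval bounded below 2-fold.

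The even split between rises and falls depended on the scaling. With TMM factors 49.9% of the called genes were higher at 28dpa, and with library totals as the only scaling 27.6% were, or 1674 genes higher and 4401 lower. The median log2 fold change over the genes tested was 0.02 with TMM factors and -0.12 with library totals only. A pair of genes took much of the count total at 28dpa: LOC112556451 and LOC112556452 together held 15.3% ± 2.42 of all counts at 28dpa and 4.56% ± 1.15 in Intact (SD, n = 4 each). The 10 genes of most counts summed over the 8 libraries, 1 set for both groups, held 21.1% ± 3.02 of the counts at 28dpa and 10.7% ± 0.740 in Intact (SD, n = 4 each). With those 2 genes left out before scaling, 46.2% of the calls were higher at 28dpa.

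**Figure D1:**
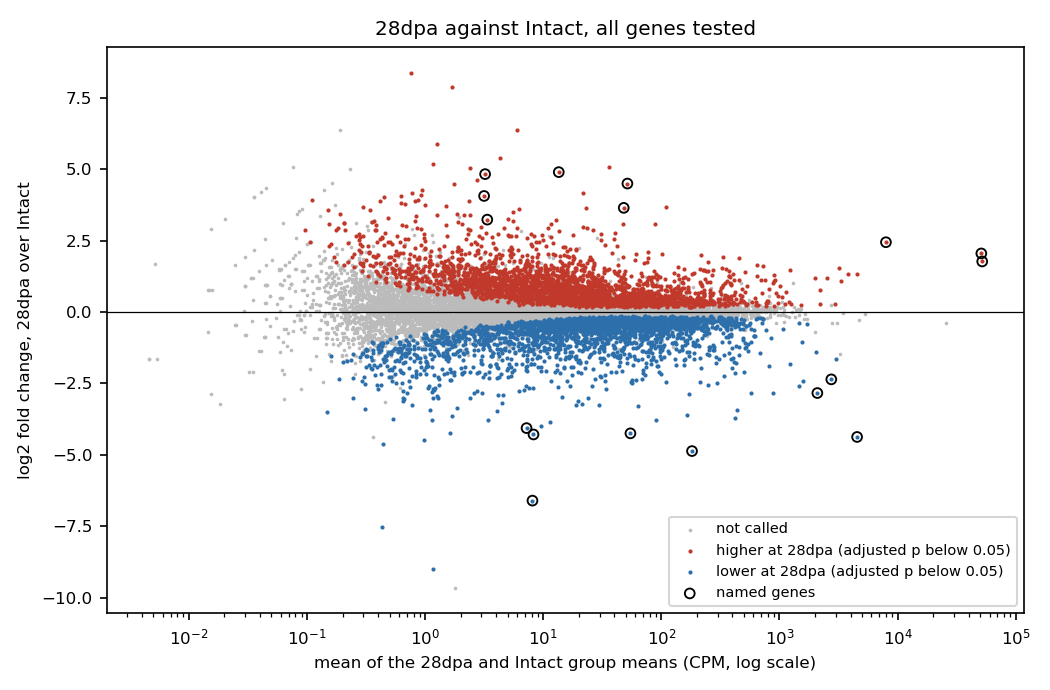
Each point is a tested gene. The horizontal axis is the mean of the 2 group means in CPM on a log scale, and the vertical axis is the log2 fold change of 28dpa over Intact. Red and blue points passed the test as higher and lower at 28dpa, grey points did not, and black circles mark the 17 named genes. Called genes lie mostly within 1 log2 unit of 0, and the named falls reach -6.60 against 4.89 for the named rises.

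The share of genes called and the balance of directions differed between classes of abundance. Among the 2115 genes with a mean below 1 CPM over the 2 groups, 16.1% were called, against 31.3% of the 8281 genes from 10 to 100 CPM and 50% of the 64 genes above 1000 CPM. From 1 to 10 CPM 884 genes were higher and 584 lower at 28dpa, while from 100 to 1000 CPM 309 were higher and 431 lower. Above 1000 CPM, 20 genes were higher and 12 lower, and 19 of these 32 had changed by 2-fold or more. The part of depth in these shares was not tested.

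The 8 libraries separated by group. On log2 CPM of all genes tested, the first principal component took 48.9% of the variance, with the 28dpa libraries at 34.3 to 55.8 and the Intact libraries at -48.0 to -38.0. The smallest distance between a 28dpa and an Intact library (99.8) was larger than the largest distance between libraries of a group (92.5). The 28dpa libraries were spread out on the second component, which took 15.1% of the variance. There 28dpa replicates 1 and 4 lay at 43.7 and 23.6 and replicates 2 and 3 at -37.9 and -15.9, while the Intact libraries ranged from -19.5 to 14.0. The closest libraries at 28dpa were replicates 2 and 3 (distance 68.2) and replicates 1 and 4 (71.0), and the farthest were replicates 1 and 2 (92.5). The median SD of a gene's log2 CPM was 0.221 at 28dpa and 0.185 in Intact.

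**Figure D2:**
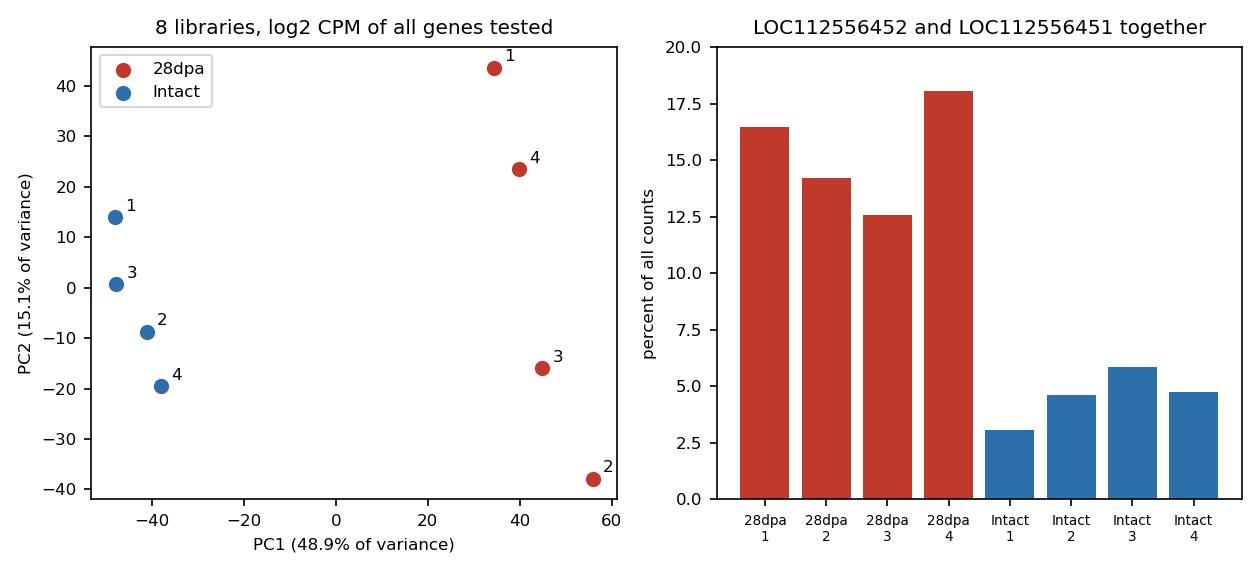
Left, the 8 libraries on the first 2 principal components of log2 CPM, labelled by replicate number, with 28dpa in red and Intact in blue. Right, bars from 0 give the percentage of all counts in LOC112556451 and LOC112556452 together in each library, between 12.6% and 18.0% at 28dpa and between 3.05% and 5.86% in Intact.

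Individual genes are given where the change was called with all libraries and without each of the 8 in turn, the 4 and 4 libraries did not overlap and the higher group averaged at least 5 CPM. These conditions held for 2607 genes, 1115 of them higher and 1492 lower at 28dpa. Across all called genes 4155 (80.4%) had libraries that did not overlap, and across all genes tested 5059 (29.2%) did. Described below are the 6 largest rises and 6 largest falls by log2 fold change and the 3 genes that gained and the 3 that lost most CPM, 17 genes in all, since 1 gene met both conditions for a fall. How the authors' counting treated strand and reads that fit several genes is not given in the sources used here, so counts of overlapping or near-identical genes may be split uncertainly.

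Among the genes named for the largest falls, LOC112562198, LOC112560581 and LOC112572559 were far below Intact in every 28dpa library. The 28dpa libraries lay close together in LOC112560581 and LOC112572559, and ranged from 0.122 to 0.247 CPM in LOC112562198. LOC112576458, which fell more than LOC112572559 and varied more at 28dpa, is given below with the genes that lost most CPM. LOC112562198 had 0.124, 0.247, 0.149 and 0.122 CPM in the 4 libraries at 28dpa, against 25.3, 13, 14.9 and 11 CPM in Intact. Every 28dpa library was far below every Intact library. The level at 28dpa was 0.999% of that in Intact, and the gene fell by 6.60 ± 0.303 on the log2 scale (SE; adjusted p = 5.83e-21, edgeR). LOC112560581 had 12.6, 10.9, 11.1 and 13.5 CPM at 28dpa, against 431, 327, 355 and 294 CPM in Intact, without overlap. It fell by 4.87 ± 0.298 on the log2 scale (adjusted p = 8.66e-14, edgeR), to 3.42% of the Intact level. For LOC112572559 the values were 0.787, 0.782, 0.781 and 0.855 CPM at 28dpa, against 22.8, 14, 13 and 13.2 CPM in Intact, with Intact replicate 1 above the rest of its group. Its log2 fold change was -4.29 ± 0.276 (adjusted p = 5.03e-16, edgeR).

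Another 2 of the 6 largest falls also had groups that lay far apart. LOC112564740 stood at 5.43, 4.81, 4.83 and 6.80 CPM at 28dpa, against 132, 90.0, 103 and 91.3 CPM in Intact. Its log2 fold change was -4.25 ± 0.203 (adjusted p = 1.83e-16, edgeR), and the groups were far apart. LOC112557531 stood at 1.12, 0.576, 0.855 and 0.693 CPM at 28dpa, against 17.3, 9.83, 10.8 and 16.6 CPM in Intact. The 28dpa libraries again lay below all Intact libraries, and the gene fell by 4.07 ± 0.344 on the log2 scale (adjusted p = 1.02e-10, edgeR).

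Most CPM were lost by 3 genes that are abundant in the intact stalk. LOC112576458, also among the 6 largest falls, had 588, 312, 319 and 450.1 CPM at 28dpa, against 11674, 7713, 8280 and 6998 CPM in Intact. All 28dpa libraries were below all Intact libraries, averaging 4.82% of the Intact mean, and the log2 fold change was -4.38 ± 0.954 (adjusted p = 0.000784, edgeR). LOC112563139 had 1047, 804, 873 and 858 CPM at 28dpa, against 4999, 4561, 4781 and 4052 CPM in Intact. It stood at 19.5% of the Intact mean, with no overlap, and fell by 2.36 ± 0.585 on the log2 scale (adjusted p = 0.0027, edgeR). LOC112571947 had 632, 424, 460.4 and 538 CPM at 28dpa, against 4323, 3234, 3718 and 3420 CPM in Intact. The groups did not overlap, the 28dpa mean was 14.0% of the Intact mean, and the log2 fold change was -2.84 ± 0.573 (adjusted p = 0.000329, edgeR). The standard errors of these 3 genes are wide beside their spread within the 2 groups because all 9 groups share 1 estimate of the spread for each gene.

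Most CPM were gained by the pair that took the largest share of the counts and by 1 more abundant gene. LOC112556451 had 87486, 75902, 64081 and 102078 CPM at 28dpa, against 13140, 19924, 25925 and 20718 CPM in Intact. Every 28dpa library was above every Intact library, and the log2 fold change was 2.05 ± 0.219 (adjusted p = 1.31e-08, edgeR). LOC112556452 had 91341, 68956, 60686 and 100843 CPM at 28dpa, against 16557, 23423, 30781 and 23810 CPM in Intact, also without overlap. Its log2 fold change was 1.77 ± 0.224 (adjusted p = 3.02e-07, edgeR). LOC112574681 had 15061, 12468, 10115 and 16199 CPM at 28dpa, against 1749, 2625, 3138 and 2409 CPM in Intact. It rose in all 4 libraries above the Intact range, by 2.44 ± 0.223 on the log2 scale (adjusted p = 5.43e-10, edgeR). In each of the 3 genes 28dpa replicates 1 and 4 were above replicates 2 and 3, the same pairs that parted on the second principal component.

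The largest rises were in genes that were low in the intact stalk, and most of them varied widely between the 28dpa libraries. LOC112566787 had 2.94, 91.9, 6.69 and 3.34 CPM at 28dpa, against 0.516, 0.847, 0.994 and 1.14 CPM in Intact. The groups did not overlap, but 28dpa replicate 2 was far above the other 28dpa libraries. The log2 fold change was 4.89 ± 0.838 (adjusted p = 4.08e-05, edgeR), and without that library it was 2.32 (adjusted p = 0.000273, edgeR). With limma-voom the value for LOC112566787 was 3.43. In a fit to the 8 libraries alone the adjusted p of LOC112566787 was 0.0518 (edgeR), and across its other alternatives it ranged from 1.07e-08 to 0.00375. LOC112566410 had 14.8, 0.700, 1.30 and 8.11 CPM at 28dpa, against 0.119, 0.515, 0.130 and 0.0733 CPM in Intact. Here 28dpa replicates 1 and 4 were high, and replicate 2 was only just above the highest Intact library. The log2 fold change was 4.82 ± 1.24 (adjusted p = 0.00363, edgeR), and it was 3.92 without 28dpa replicate 1, 5.79 without Intact replicate 2 and 3.39 with limma-voom.

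A pair of rises had the same order of libraries at 28dpa, with replicate 1 the lowest. LOC112553361 had 25.1, 151, 129 and 91.0 CPM at 28dpa, against 2.82, 7.10, 2.72 and 4.73 CPM in Intact. The lowest 28dpa library was above the highest Intact library, and the log2 fold change was 4.49 ± 0.918 (adjusted p = 0.000384, edgeR). LOC112553371 had 20.5, 154, 102 and 79.1 CPM at 28dpa, against 6.83, 9.87, 7.09 and 4.69 CPM in Intact, again without overlap. Its log2 fold change was 3.64 ± 0.852 (adjusted p = 0.00159, edgeR). In the RefSeq gene order of the assembly ASM307304v1 a single tested gene, LOC112553357, lies between them. Picked for that place, it was at 31.4 ± 8.64 CPM at 28dpa and 18.6 ± 3.60 CPM in Intact (SD, n = 4 each; adjusted p = 0.101, edgeR, and 0.0242 in a fit to the 8 libraries alone).

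The remaining 2 of the 6 largest rises had low levels. LOC112553276 had 8.45, 1.28, 1.93 and 12.2 CPM at 28dpa, against 0.357, 0.368, 0.562 and 0.147 CPM in Intact. Replicates 1 and 4 were again the high ones at 28dpa, all 4 lay above Intact, and the log2 fold change was 4.06 ± 0.583 (adjusted p = 1.64e-06, edgeR). For LOC112553276 it was 3.45 without 28dpa replicate 4 and 3.19 with limma-voom. Its neighbour LOC112553278, picked after its values were seen, was also higher, at 1.18 ± 0.619 CPM at 28dpa and 0.0783 ± 0.0572 CPM in Intact (SD, n = 4 each), by 3.83 ± 0.999 on the log2 scale (adjusted p = 0.00365, edgeR). LOC112567111 was the most even of the 6, with 9.16, 4.94, 4.50 and 5.74 CPM at 28dpa, against 0.913, 0.626, 0.475 and 0.550 CPM in Intact. The groups were well apart, and the log2 fold change was 3.23 ± 0.375 (adjusted p = 5.43e-08, edgeR).

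**Figure D3:**
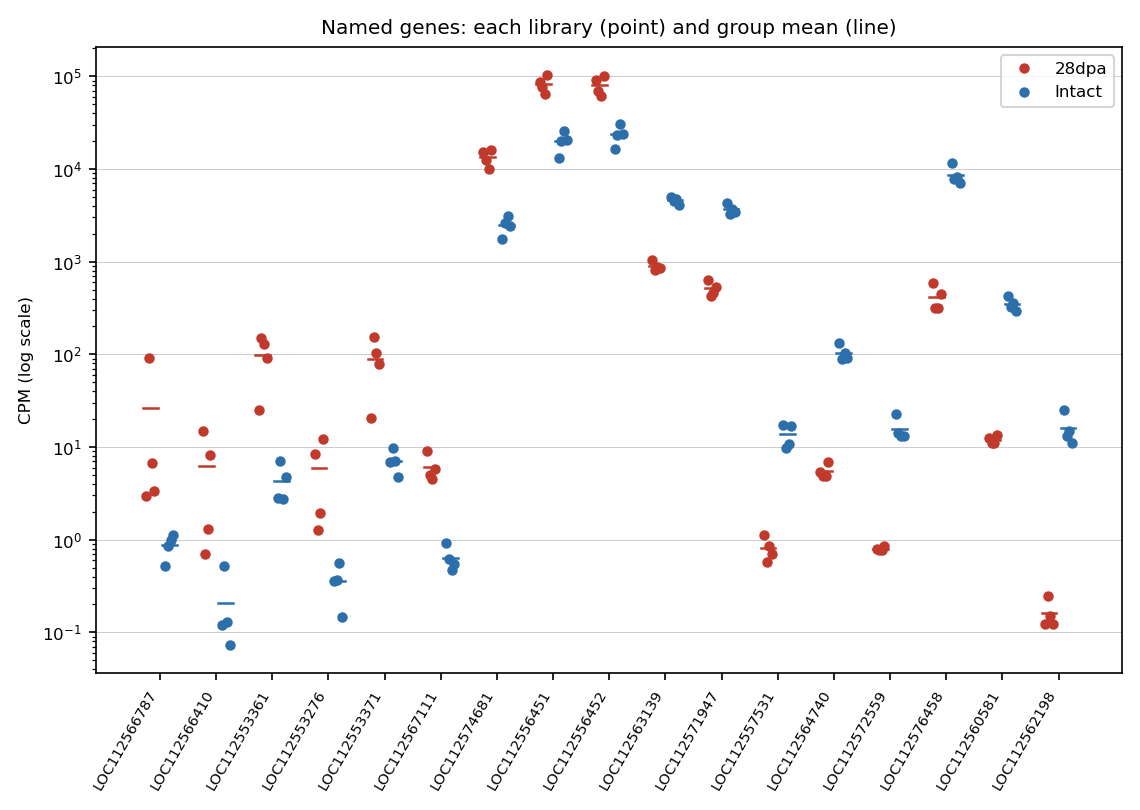
CPM on a log scale for the 17 named genes, ordered from the largest rise to the largest fall. Points are libraries, 28dpa in red to the left and Intact in blue to the right, and short lines are group means. No gene has overlapping groups, which the rule for naming required. The 28dpa points of LOC112566787, LOC112566410 and LOC112553276 are spread over about a decade or more, while those of LOC112572559 and LOC112560581 nearly coincide.

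Single libraries carried much of the level of many of the strongest rises. Among the 63 genes higher by 8-fold or more, 29 (46%) drew over 50% of their summed CPM at 28dpa from 1 library, against 2 (4.88%) of the 41 falls in the Intact libraries. For changes of 2-fold or more these were 114 of 972 rises (11.7%) and 13 of 732 falls (1.78%). Among the 37 rises of 8-fold or more that were called without each library in turn, 7 (18.9%) did so. The 63 rises had a median of 2.69 CPM at 28dpa and the 41 falls 6.36 CPM in Intact. The part of level in this contrast was not tested. The highest library was 28dpa replicate 2 in 31 of the 63 genes, replicate 4 in 14, replicate 1 in 12 and replicate 3 in 6. Without 28dpa replicate 2, 40 genes were higher by 8-fold or more, and in a fit to the 8 libraries alone 29 were. Of the 63 rises 37 were called without each library in turn, against 40 of the 41 falls, and 44 had libraries that did not overlap, against 39 of the falls. Across all called genes 3210 (62.1%) were called without each library in turn in the same direction, and 80.4% had libraries that did not overlap.

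Several of these genes, picked after their values were seen, show the difference. LOC112559880 had 0.787, 258, 19.5 and 2.12 CPM at 28dpa, against 0.992, 1.21, 0.821 and 5.17 CPM in Intact. It was called (log2 fold change 5.06 ± 1.45, adjusted p = 0.0088, edgeR), yet 28dpa replicate 1 was below all Intact libraries. With 28dpa replicate 2 left out, the log2 value for LOC112559880 was 1.86 (adjusted p = 0.339, edgeR), the largest p over its alternatives. LOC112569128, of low level, had 3.31, 1.93, 1.38 and 2.57 CPM at 28dpa, against 0.198, 0, 0 and 0.0367 CPM in Intact. All 4 libraries lay well above Intact, and the gene rose by 5.18 ± 0.603 on the log2 scale (adjusted p = 2.08e-08, edgeR).

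Some genes were counted in 1 of the groups only. With no count in the 4 Intact libraries, 384 genes had a count in at least 1 library at 28dpa, and 19 of them in all 4. In the other direction 307 genes had no count in the 4 libraries at 28dpa and a count in at least 1 Intact library, 13 of them in all 4. Of the 19 genes 4 were abundant enough over the series to be tested, and of the 13 genes 2 were. The genes not called, tested or not, had at most 39 counts over the 28dpa group and 20 over the Intact group. The genes with these highest counts were not tested.

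Only 3 of these tested genes were called, and they were named after their values were seen. LOC112562758 had 45, 22, 47 and 39 counts at 28dpa and none in Intact, at least 52.5-fold higher when 3 counts over the group are taken as the floor (adjusted p = 0.000221, edgeR). LOC112555523 had no count at 28dpa and 37, 51, 62 and 92 counts in Intact, at least 78.4-fold lower (adjusted p = 0.00607, edgeR). LOC112572705 likewise had none at 28dpa and 25, 12, 24 and 27 counts in Intact, at least 28.5-fold lower (adjusted p = 2.16e-05, edgeR; 0.0696 with DESeq2). These bounds cover counting error only. Over the time course LOC112562758 averaged 0.163 ± 0.137 CPM on day 9 and 2.77 ± 1.01 CPM on day 12, with a single count at 1dpa and at 3dpa. LOC112572705 had at most 3 counts over the 4 libraries at every time from 1dpa to 28dpa. LOC112555523 averaged 2.34 ± 1.34 CPM on day 9 and 2.83 ± 2.33 CPM on day 12, near its Intact level of 2.35 ± 0.847 CPM, and had no count at 15dpa and 2 at 21dpa.

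The earlier time points show how the levels at 28dpa had been reached. The Intact libraries enter the comparison with 28dpa and these courses alike, so the courses are given as levels. Among the 41 genes lower by 8-fold or more at 28dpa, the Intact mean was the highest of the 9 groups in 37. The mean was at or below 10% of Intact already at 1dpa in 32 of them, and at every time from 1dpa to 28dpa in 17. At 1dpa 3 of the 41 were at 50% of Intact or more. In 9 of the 41 the 28dpa mean was above the mean of every earlier time after amputation.

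LOC112564740 and LOC112557531 were low at every time after amputation. The mean of LOC112564740 was 104 ± 19.3 CPM in Intact and between 4.45 and 6.74 CPM at each of the 8 times from 1dpa to 28dpa. LOC112557531 averaged 13.6 ± 3.90 CPM in Intact, and its means at the 8 times lay between 0.240 CPM at 15dpa and 1.18 CPM at 21dpa, 2 times whose libraries did not overlap. LOC112562198, with 0.489 ± 0.150 CPM at 1dpa, lay between 0.0473 and 0.270 CPM from 3dpa on.

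Other lost genes came back in part. LOC112563139 averaged 4598 ± 406 CPM in Intact. On days 1, 6, 9, 12, 21 and 28 its means were 9.16, 2.53, 34.9, 393, 516 and 896 CPM, with SDs of 12.8, 0.739, 18.2, 77.9, 94.8 and 105 (n = 4 each). The day 1 mean rested on replicate 2, at 28.3 CPM, with the other 3 libraries at 1.96 to 4.41 CPM. LOC112571947 averaged 3673 ± 476 CPM in Intact, and on days 6, 12, 21 and 28 its means were 2.43, 224, 316 and 514 CPM, with SDs of 0.968, 32.0, 105 and 92.3. For both genes the 28dpa mean was the highest after amputation. LOC112576458 was lowest on day 6 as well (1.29 ± 0.796 CPM), but its highest mean after amputation was on day 15 (519.5 ± 127 CPM). LOC112560581 also peaked on day 15 among the times after amputation, with 23.4 ± 4.70 CPM, and averaged 12.0 ± 1.21 CPM on day 28. LOC112572559 averaged 1.43 ± 0.507 CPM on day 15 and 0.801 ± 0.0362 CPM on day 28 (SD, n = 4 each).

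The 63 strong rises were of mixed timing. The highest mean of the 9 groups was at 28dpa in 16 of them, at 1dpa in 13, at 15dpa in 10, at 6dpa in 9, at 12dpa and at 21dpa in 7 each, and at 9dpa in 1. The mean was at least 8 times that of Intact at 1dpa already in 25. LOC112553361 averaged 4.34 ± 2.06 CPM in Intact, and on days 1, 9, 15 and 28 its means were 14.5, 88.6, 569 and 98.9 CPM, with SDs of 14.8, 47.3, 414 and 55.1. On day 15 replicate 4 of LOC112553361 stood at 1187 CPM and the other 3 libraries at 312 to 417 CPM. LOC112553371 averaged 309 ± 169 CPM on day 1 and 473 ± 639 CPM on day 15, where replicate 4 stood at 1429 CPM and the other 3 libraries at 95.6, 174 and 194 CPM. LOC112566410 was high early and late, with means of 10.4, 0.263 and 6.23 CPM on days 1, 12 and 28 (SDs 5.51, 0.0567 and 6.64). LOC112553276 and LOC112567111 had their highest means on day 21, of 7.74 ± 2.78 and 8.45 ± 1.91 CPM (SD, n = 4 each).

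The 3 abundant genes that gained most CPM had higher means late in the course than early. LOC112556451 averaged 19927 ± 5249 CPM in Intact, and on days 1, 3, 9, 21 and 28 its means were 12700, 28024, 50208, 79090 and 82387 CPM, with SDs of 4718, 2537, 7863, 7731 and 16237. LOC112556452 had a like course, with 13634 ± 5409 CPM on day 1 and 77397 ± 9782 CPM on day 21. LOC112574681 averaged 2480 ± 575 CPM in Intact, and on days 1, 3, 21 and 28 its means were 2769, 7314, 14055 and 13461 CPM, with SDs of 1013, 1323, 1547 and 2723 (n = 4 each).

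**Figure D4:**
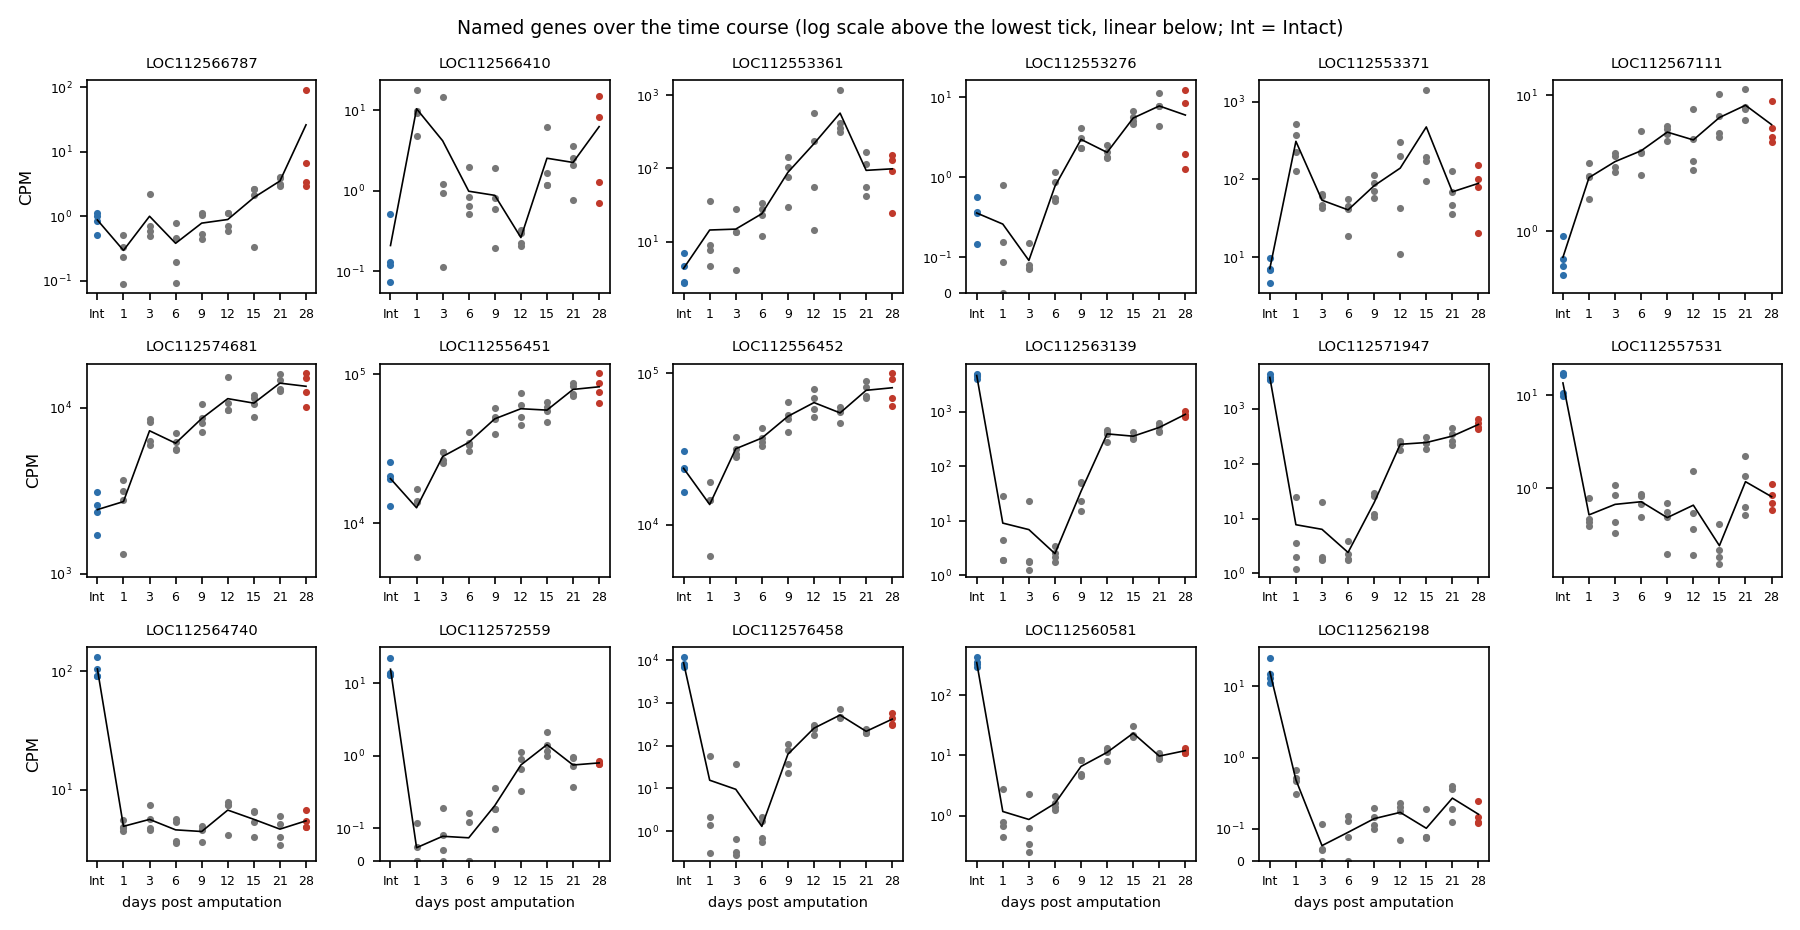
CPM of the 17 named genes in all 9 groups, Intact first and then days post amputation. Points are libraries (Intact blue, 28dpa red, other times grey) and lines join group means, and each panel has its own scale, logarithmic above its lowest tick. The falls drop at 1dpa. Their later means range from low throughout (LOC112564740, 4.45 to 6.74 CPM) to a partial recovery (LOC112563139, 896 CPM at 28dpa against 4598 CPM in Intact).

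Against 21dpa, the time before, few genes were called at 28dpa. The count was 159 genes or 0.917% of those tested (edgeR, adjusted p below 0.05), with 2050 at an unadjusted p below 0.05. It was 69 without 28dpa replicate 3, 47 without replicate 4 and 249 without replicate 1. DESeq2 gave 347 and limma-voom 316, and the 21dpa libraries were not left out here. Among the 17 named genes only LOC112566787 was called, with a log2 fold change of 28dpa over 21dpa of 2.89 ± 0.687 (adjusted p = 0.0341, edgeR). Without 28dpa replicate 2 it was 0.30 (adjusted p = 0.871, edgeR). With a replicate block it was 2.21 (adjusted p = 0.122, edgeR), and over all its alternatives the adjusted p ranged from 0.0102 to 0.871.

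For the other 16 genes the difference from 21dpa was not called, and the 95% intervals say how large it could be. They were narrow for the abundant rises: -0.37 to 0.49 on the log2 scale for LOC112556451, -0.39 to 0.50 for LOC112556452 and -0.49 to 0.37 for LOC112574681. LOC112564740 was bounded between -0.22 and 0.66. The intervals of LOC112563139 (-0.35 to 1.94) and LOC112571947 (-0.40 to 1.80) included no change and also more than a doubling since 21dpa. For LOC112553361 the interval reached from -1.45 to 1.59, so that little can be said of its last week.

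Some of the genes that changed at 28dpa lay beside others that changed in the same direction. The 21131 symbols all matched the RefSeq gene table of ASM307304v1, which was used for gene order only, and 17323 tested genes lay on its linkage groups. Of 17309 pairs of neighbouring tested genes, 1743 had both genes called, and 1141 of these (65.5%) had the same direction. Where both had changed by 2-fold or more, 277 of 350 pairs (79.1%) had the same direction. Of all called genes 49.9% were higher, and of all genes called and changed by 2-fold or more 57.0% were. Whether neighbours shared a direction more often than other pairs of genes was not tested. There were 48 runs of 3 or more neighbouring genes that had all changed by 2-fold or more in 1 direction, and 5 runs of 5 or more, the longest of 7. Neighbours with near-identical sequences can share reads, and whether these genes do was not tested. The 5 long runs were picked after their values were seen.

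The longest run comprised LOC112559453, LOC112559452, LOC112559456, LOC112559611, LOC112559454, LOC112559457 and LOC112559451, all higher at 28dpa, by log2 fold changes of 1.55 to 4.27. Summed over the run, the level was 23.5 ± 9.04 CPM at 28dpa and 5.47 ± 2.21 CPM in Intact (SD, n = 4 each), with 28dpa libraries from 15.4 to 35.4 CPM and Intact libraries from 3.41 to 8.61 CPM. Most of it came from LOC112559453, at 14.1 ± 4.62 CPM at 28dpa and 3.74 ± 1.49 CPM in Intact. All 7 genes had libraries that did not overlap, and 4 were called without each library in turn. At 21dpa the sum was 35.9 ± 28.0 CPM, and the highest 21dpa library stood apart at 77.6 CPM.

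A run of 6 genes was lower, LOC112570790, LOC112558901, LOC112558941, LOC112558894, LOC112558885 and LOC112558928, by log2 fold changes of -1.79 to -1.17. All 6 were called without each library in turn, with adjusted p of at most 4.18e-05 (edgeR). Their sum was 168 ± 26.4 CPM at 28dpa and 466 ± 64.0 CPM in Intact, and the groups did not overlap. On days 1, 6, 12 and 21 the sums averaged 13.6, 35.9, 87.0 and 129.7 CPM, with SDs of 2.12, 4.41, 10.4 and 5.49, so that 28dpa had the highest mean after amputation. A second run of 6, LOC112572402, LOC112573002, LOC112573003, LOC112571455, LOC112571456 and LOC112573004, was lower by -2.32 to -1.94 on the log2 scale. Its sum was 2.86 ± 1.44 CPM at 28dpa and 12.7 ± 3.23 CPM in Intact, but 14.1 ± 8.04 CPM at 15dpa, where 1 library reached 25.8 CPM. All 6 had libraries that did not overlap, and 5 were called without each library in turn. LOC112573003, of low level (0.410 ± 0.186 CPM in Intact), lost its call without 28dpa replicate 4 (adjusted p = 0.0536) or Intact replicate 2 (0.0687; all edgeR).

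The 2 runs of 5 genes were higher. LOC112555748, LOC112555529, LOC112555741, LOC112555737 and LOC112555739 summed to 60.7 ± 7.50 CPM at 28dpa and 19.8 ± 6.57 CPM in Intact, with log2 fold changes of 1.05 to 1.77 and no overlap in any of the 5. All but LOC112555737 were called without each library in turn. LOC112555737 lost its call without 28dpa replicate 4 (adjusted p = 0.0559), Intact replicate 2 (0.0721) or Intact replicate 4 (0.0823), and with the older trended dispersion (0.0570; all edgeR). Before 15dpa the sum lay between 14.1 and 27.0 CPM, and it was 66.6 ± 10.03 CPM at 21dpa. LOC112562228, LOC112562479, LOC112562217, LOC112562218 and LOC112563048 summed to 853 ± 342 CPM at 28dpa and 332 ± 129 CPM in Intact, with log2 fold changes of 1.00 to 3.75. In this run only LOC112562228 and LOC112563048 were called without each library in turn, and the libraries of LOC112562479 overlapped. Most of the sum came from LOC112562217 and LOC112562218, with means of 383 and 404 CPM at 28dpa. The call of LOC112562217 (adjusted p = 0.0465, edgeR) was lost with a replicate block (0.0525), with DESeq2's size factors (0.0505), with library size as the only scaling (0.0743), with no filter on low counts (0.0637), with limma-voom (0.0648), with the older trended dispersion (0.0502) and with the 2 genes of most counts left out (0.05003). It was also lost without 28dpa replicate 1, 3 or 4 and without Intact replicate 1, 3 or 4, at adjusted p of LOC112562217 up to 0.153 (edgeR). The mean sums at 6dpa, 9dpa, 12dpa and 15dpa were 892 ± 76.6, 600.0 ± 358, 262 ± 86.4 and 782 ± 60.8 CPM (SD, n = 4 each). The 12dpa libraries, at 209 to 391 CPM, lay below all 15dpa libraries but overlapped those at 9dpa, at 255 to 1020 CPM.

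**Figure D5:**
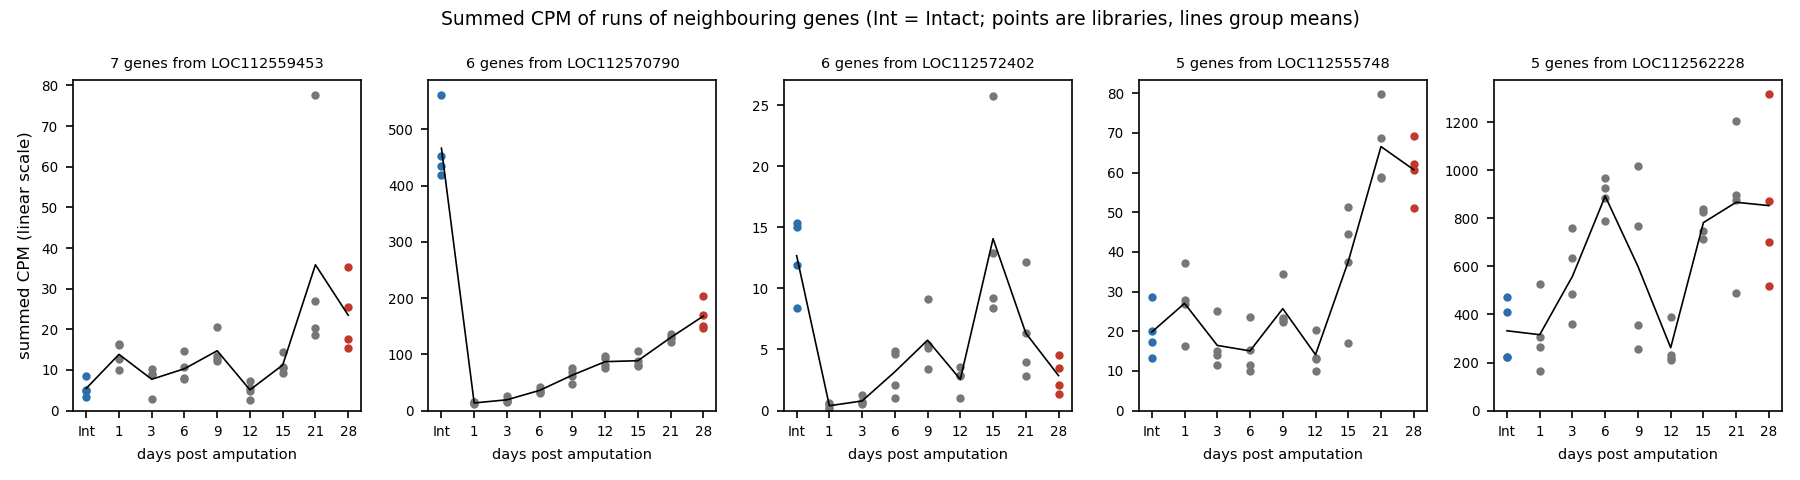
Summed CPM, on a linear scale from 0, of the 5 runs of neighbouring genes that all changed by 2-fold or more in 1 direction, in Intact and at each day post amputation. Points are libraries (Intact blue, 28dpa red, other times grey) and lines join group means. The run from LOC112570790 drops to 13.6 CPM at 1dpa and averages 168 CPM at 28dpa, against 466 CPM in Intact.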

How the data were processed

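A single table of raw counts, 1 row per gene and 1 column for each of the 36 libraries, was deposited. Reads were aligned with STAR, per the submitters' processing notes. Not given in the sources used here are the STAR version, genome build, annotation, strandedness and handling of multi-mapped reads. Groups and replicate numbers were taken from the labels, and the design text lists a day 7 group where the labels have day 6. The comparison, the rule for named genes, the gene lists and the runs were chosen with earlier results of these data known. Gene lists that select by product name, and protein families, found no members and were not used.

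The analysis used R 4.3.3 and edgeR 4.0.16. Of 21131 genes, 615 had no count, and filterByExpr on the 9 groups kept 17341, with 99.98% or more of each compared library's counts. One quasi-likelihood model (glmQLFit, robust, legacy off, TMM factors, a mean per group) was fitted to all 36 libraries, with 2-sided tests, Benjamini-Hochberg adjustment over all genes tested and a threshold of 0.05. Standard errors come from the F statistic and intervals are at 95%. Principal components and distances used log2 CPM with a prior count of 2. Pairs of libraries within the 2 groups differed beyond sampling noise in every case (chi-square per degree of freedom 11.3 to 58.2). The test was tried on simulated counts with known changes, drawn with the trended dispersion, and no result given here rests on that trial. Alternatives used other scalings and filters, DESeq2 1.42.0, limma-voom (limma 3.58.1), the 8 libraries alone, a replicate block and each of the 8 libraries left out. Added later, with the data known, were fits without the 12dpa libraries, without the 2 genes of most counts and with edgeR's older trended dispersion.

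Genes are named if called with all libraries and without each of the 8, with 4 and 4 libraries not overlapping and at least 5 CPM in the higher group, taking the 6 largest log2 fold changes each way and the 3 largest gains and losses in CPM. Genes named outside this rule are said to be picked or named after their values were seen.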

Additional observations from a re-analysis of the deposited data

Results flagged for a closer look

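In 123 groups of 4 libraries, those of the genes named, of the runs and of 5 library measures, the library farthest from the rest was set against the range of its group, and 11 stood apart. Chance flags about 1 in 20 groups. At 28dpa replicate 2 was the library apart in LOC112566787 (91.9 CPM, against 2.94 to 6.69 CPM in the other 28dpa libraries) and in LOC112559880 (258 CPM, against 0.787 to 19.5 CPM). Replicate 4 was apart at 28dpa in LOC112572559 (0.855 CPM, against 0.781 to 0.787 CPM) and in LOC112559457 (2.53 CPM, against 0.781 to 0.870 CPM). Among the Intact libraries, replicate 1 was apart in LOC112572559 (22.8 CPM, against 13 to 14 CPM), in LOC112558901 (96.7 CPM, against 71.9 to 74.7 CPM) and in LOC112558894 (54.4 CPM, against 37.1 to 39.96 CPM). Intact replicate 2 was apart in LOC112566410 (0.515 CPM, against 0.0733 to 0.130 CPM) and, on the low side, in LOC112572705 (0.442 CPM, against 0.990 to 1.04 CPM). Intact replicate 3 was apart in LOC112559454 (0.130 CPM, against 0.0733 to 0.0794 CPM), and Intact replicate 4 in LOC112559880 (5.17 CPM, against 0.821 to 1.21 CPM). Without the 28dpa library concerned LOC112559880 lost its call, and LOC112566787 kept its call at a log2 fold change of 2.32 in place of 4.89.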

How the results depend on the processing

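The count of 5169 calls lay between 4402 and 6075 over all alternatives, at 5154 with a replicate block, 4588 with the 8 libraries alone and 5357 with DESeq2. With library size alone 1674 genes were higher and 4401 lower. Genes higher by 8-fold or more, 63 in all, were 29 with the 8 libraries alone and 40 to 82 with a library left out. Genes lower by 8-fold or more, 41 in all, were 66 with no filter on low counts, where more genes were tested, and 60 without 28dpa replicate 1. The causes of these shifts were not tested. Against 21dpa the 159 calls were 347 with DESeq2, 316 with limma-voom, 94 with the older trended dispersion and 47 to 249 with a library left out. Against Intact, the 17 genes named by the rule kept direction and call in 320 alternative values and lost the call in 1, LOC112566787 with the 8 libraries alone. The rule itself required the call without each of the 8 libraries, so those alternatives could not lose it for the 17 genes. The 36 genes picked later did not have to meet that condition. They kept direction and status, called or not, in 633 alternative values and lost the call in 40, mostly with a library left out. They gained a call in 1, and none changed sign with a call. The gain was in LOC112553357, not called with all libraries (adjusted p = 0.101, edgeR), and its values that stayed uncalled are within the 633. Against 21dpa, LOC112566787 lost its call with limma-voom (1.53, adjusted p = 0.309), the replicate block, the older trended dispersion (2.89, adjusted p = 0.0729, edgeR) and without 28dpa replicate 2. Equal replicate numbers showed little sign of pairing between 28dpa and Intact: the correlations of their deviations were 0.17, 0.09, -0.07 and -0.07, and only 28dpa replicate 1 correlated best with its own number in Intact. Whether libraries of equal number shared a batch was not tested.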
